A study of Mus musculus with 9 samples.

Results

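The probes described here are the oligonucleotide probes whose names on the array begin with humanlincRNA, out of 60915 different probes after control spots were set aside. They were picked out by name alone, but the choice to describe this set was made with earlier results of these data known. The names hold a number and a sign: 549 probes carry a plus and the other 555 a minus, over 557 different numbers, of which 547 have both signs and 10 have 1 probe. Each was printed as 1 spot. The labels and file headers do not say what the numbers and signs stand for, and the bases and genome positions of the oligos were not used here.

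Long intergenic non-coding RNAs (lincRNAs) are transcribed from DNA between protein-coding genes and are not translated into protein. Many are present at low levels and in few tissues, and their sequence is often less conserved between species than that of coding exons. Some act in chromatin regulation or as scaffolds for proteins, and lincRNAs such as H19 are known from fetal liver and liver cancer.

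RNA came from mouse livers in 3 groups of 3 samples, each on its own array with 1 dye. Fetal liver was taken from embryos at day 17.5, with their sex not given. Adult liver was taken from males of 2 months. Liver cancer came from males of 1 year in a model induced with diethylnitrosamine (DEN), a chemical carcinogen, with the tissue examined by haematoxylin and eosin staining. Age, carcinogen and tumour all separate liver cancer from adult liver and cannot be told apart. The replicates are described as independent, but no animal or litter is named for them, so p-values measure only the spread between these samples. Bulk tissue was used, so fewer cells of a type and less RNA per cell cannot be told apart.

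A probe counted as detected on an array when the scanner software marked it well above background. The file headers give 2 scans. The first holds fetal liver replicates 1 to 3, adult liver replicates 1 to 3 and liver cancer replicate 1, and the second holds liver cancer replicates 2 and 3. The median processed signal over all probes was 11.7 to 27.3 on the 7 arrays of the first scan, and 71.6 and 67.0 on the 2 arrays of the second. Of 300 negative-control spots, 0 to 3 were detected on first-scan arrays, against 21 and 10 on liver cancer replicates 2 and 3. No humanlincRNA probe was saturated (0 on every array). Arrays of a group correlated at 0.934 to 0.985 across the tested probes. Only 15 probes of the array carry an accession, and none of the 23 liver, blood, tumour and stroma marker genes listed for a check of the tissue was among them (0 of 23), so the tissue labels were not checked against markers.

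Most humanlincRNA probes gave little signal in these livers. In fetal liver 18.3%, 26.7% and 18.6% of all humanlincRNA probes were detected on replicates 1, 2 and 3. The adult liver arrays gave 17.9%, 18.5% and 18.7%. In liver cancer the shares were 17.9% on replicate 1, and 44.9% and 41.5% on replicates 2 and 3. The high values thus lay on the 2 second-scan arrays and, to a lesser degree, on fetal liver replicate 2, while liver cancer replicate 1 equalled the lowest adult array. Group means were 21.2% ± 4.79 (SD, n = 3) in fetal liver, 18.4% ± 0.38 (SD, n = 3) in adult liver and 34.8% ± 14.7 (SD, n = 3) in liver cancer. Two-sided exact permutation tests gave p = 0.5 for fetal against adult liver and p = 0.4 for liver cancer against either, where 3 against 3 arrays cannot go below 0.1. The part of the scan in the liver cancer mean was not tested, and within the first scan that group has 1 array.

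All other probes of the same arrays were detected more often, at 40.9% to 55.3% on first-scan arrays, against 69.7% and 68.3% on second-scan arrays. The humanlincRNA share was lower on 9 of 9 arrays, by 26.1 percentage points ± 2.26 (SD, n = 9), with an exact sign-flip p of 0.00391, the smallest 9 arrays can give. Within the first scan it also lay 26.1 points lower (n = 7, exact sign-flip p = 0.0156). This gap was -28.7 points ± 0.50 (SD, n = 3) for the fetal arrays, -23.8 ± 0.90 for the adult ones and -25.7 ± 1.03 for liver cancer. The groups did not overlap in the size of the gap in points, and each pair of groups gave an exact permutation p of 0.1, the smallest possible. They did overlap in the ratio of the humanlincRNA share to that of the other probes. This ratio was 0.388 to 0.483 in fetal liver, 0.427 to 0.440 in adult liver and 0.414 to 0.644 in liver cancer. The 649 probes named mouselincRNA were much closer. On 8 of 9 arrays the humanlincRNA share was the lower, by 1.38 points on average ± 1.09 (SD, n = 9, exact sign-flip p = 0.0117), and by 1.18 points within the first scan (n = 7, exact p = 0.0469). Fetal liver replicate 2 was the exception, with 26.7% against 25.9%.

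Across the 9 arrays, 544 humanlincRNA probes (49.3%) were detected on none, against 24.3% of all probes and 47.0% of the mouselincRNA probes. At the other end, 133 (12.0%) were detected on all 9 arrays, against 32.7% of all probes and 14.5% of the mouselincRNA probes. Between these ends the counts were 115 probes on 1 array, 128 on 2, 70 on 3, 26 on 4, 27 on 5, 10 on 6, 23 on 7 and 28 on 8. As shares of the humanlincRNA probes these were 10.4%, 11.6%, 6.34%, 2.36%, 2.45%, 0.906%, 2.08% and 2.54%. Over all probes the shares were 7.80%, 11.1%, 5.60%, 3.06%, 4.35%, 3.67%, 2.96% and 4.38%. The second scan made up much of the low end, for these probes much as for all probes. Of the 128 probes detected on 2 arrays, 116 were detected on liver cancer replicates 2 and 3. That is 10.5% of the humanlincRNA probes, against 9.93% of all probes. Of the 70 detected on 3 arrays, 40 had those 2 arrays plus fetal liver replicate 2 (3.62% against 2.79%). In all, 211 probes (19.1%, against 16.3% of all probes) were detected only on 1 or both second-scan arrays. No first-scan array detected 755 (68.4% against 40.6%), and at least 1 detected 349 (31.6% against 59.4%). The 133 probes detected on all 7 first-scan arrays were detected on all 9.

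The 547 numbers with a plus and a minus probe allow the signs to be compared on the same array. On first-scan arrays, 20 to 47 pairs had both probes detected and 301 to 378 had neither, and on the second-scan arrays 114 and 98 had both and 169 and 191 neither. The partner of a detected probe was itself detected in 20.4% to 32.1% of cases in the first scan, against 15.8% to 24.8% for the partner of an undetected probe. On liver cancer replicates 2 and 3 these shares were 46.3% against 43.9% and 43.2% against 40.3%. Detection of a probe was thus a weak guide to that of its partner, and the difference was not tested because probes that share a number may share a target.

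Over all arrays, 12 pairs had both probes detected on all 9, and 139 had neither detected on any. In 53 pairs 1 probe was detected on all 9 arrays and its partner on 0, with the plus probe detected in 30 and the minus probe in 23. Among the probes named below, humanlincRNA0970-_P1, humanlincRNA0111+_P1, humanlincRNA1172+_P1, humanlincRNA0549-_P1, humanlincRNA1037+_P1 and humanlincRNA1714-_P1 were detected on 9 arrays and their partners on 0.

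For levels, 314 humanlincRNA probes were tested, those detected on at least 3 of 9 arrays, together with 34103 probes of the whole array. A level is the log2 of the processed signal minus the log2 of that array's 75th percentile, so that a level of 0 equals the 75th percentile. A probe was called when limma's moderated test gave a Benjamini-Hochberg adjusted p below 0.05 over the 34103 probes and the groups differed by at least 2-fold. A probe that is dim in most samples passed the detection filter only through the group where it is bright, so counts among the 314 describe these probes and not all that carry the name. Replicates spread more among the 314 than over all tested probes. The median SD within a group was 0.283 against 0.199 for fetal samples, 0.350 against 0.205 for adult ones and 0.545 against 0.469 for liver cancer. For the 133 humanlincRNA probes detected on all 9 arrays it was 0.204, 0.205 and 0.458. These lay near the values over all tested probes, which include probes detected on fewer arrays. Against all probes detected on 9 arrays, the 133 had the higher median standard error (SE) of a group difference, 0.290 against 0.264.

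Between fetal and adult liver, most called humanlincRNA probes were lower in the fetus. Of the 314 tested humanlincRNA probes, 57 (18.2%) were called lower and 12 (3.82%) higher, where over all tested probes 18.4% were called lower and 21.2% higher (39.6% in either direction). The lower share thus stood near that of the array, and the higher share below it. In 16 of the 57 lower calls no fetal array detected the probe, and in 6 of the 12 higher calls no adult array did. With the dim group set no lower than each array's lowest detected signal, 5 of the 16 and 2 of the 6 differed by more than 2-fold. For the others a 2-fold difference above background was not shown. The share over all tested probes is not given. The mouselincRNA probes had 36 lower and 6 higher of 175. The median log2 difference of the 314 was -0.21, against -0.02 over all tested probes. Among the 133 humanlincRNA probes detected on all 9 arrays, 25 were called lower and 5 higher, where 19.4% and 16.4% of all such probes were. In 125 of the 314 (39.8%) the 3 fetal and 3 adult levels did not overlap, against 66.1% over all tested probes. For 85 of the 314 (27.1%, against 20.3% over all tested probes), the 95% interval of the difference lay within 2-fold either way.

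The largest rise in fetal liver was that of humanlincRNA0970-_P1. Its log2 levels were 4.22, 4.54 and 4.16 in fetal liver, -1.07, -0.51 and -0.31 in adult liver, and -1.34, 0.92 and -0.30 in liver cancer. All fetal samples stood far above the other 6, which overlapped each other. The fetal level was higher than the adult by 4.94 ± 0.49 on the log2 scale (SE, n = 3 and 3), or 30.7-fold, with a limma adjusted p of 3.48e-05. humanlincRNA1151+_P1 had the same shape, with 1.91, 1.74 and 1.80 in fetal liver, -1.81, -1.94 and -2.14 in adult liver, and -1.68, -1.68 and -1.56 in liver cancer. Its 3 groups were tight, and the fetal samples stood apart from the others. It rose by 3.78 ± 0.18 (limma adjusted p = 3.29e-07), or 13.7-fold. Its minus partner was detected on 1 array.

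humanlincRNA0111+_P1 was raised in the fetus and more so in liver cancer. Its log2 levels were 3.13, 2.87 and 3.09 in fetal liver, 0.40, 0.65 and 0.30 in adult liver, and 5.29, 4.63 and 4.71 in liver cancer. The 3 groups did not overlap, in the order adult, fetal, cancer. Against adult liver it was higher by 2.58 ± 0.23 in fetal liver (limma adjusted p = 1.57e-05) and by 4.42 ± 0.23, or 21.5-fold, in liver cancer (limma adjusted p = 4.42e-06). These comparisons share the adult arrays. Liver cancer against fetal liver, which does not use them, gave 1.84 ± 0.23 (limma adjusted p = 0.000132).

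The other leading rises came from probes that were dim in adult liver. Where a group was below background on all its arrays, the fold is a lower bound for the processed signals, not under other background models. It runs from the bright group's mean level to that of, for each array, the higher of its lowest detected signal and the probe's own. Undetected arrays of the bright group stay in its mean, so the fold is a bound only where that group was detected throughout. humanlincRNA1963-_P1 had log2 levels of -0.86, -0.72 and -0.996 in fetal liver and was not well above background on any other array. It was at least 2.57-fold higher in fetal than in adult liver (limma adjusted p = 1.8e-05). humanlincRNA0381+_P1 had -1.15, -1.15 and -1.20 in fetal liver, was below background in adult liver, and was at least 2.07-fold higher (limma adjusted p = 1.18e-05). humanlincRNA1006-_P1, at -0.16, 0.33 and -0.15 in fetal against -1.93, -2.82 and -1.87 in adult liver, rose by 2.21 ± 0.40 (limma adjusted p = 0.0014). All 3 lost their call under the normexp background model described with the processing, with log2 differences of 0.69, 0.52 and 0.78, whereas humanlincRNA0970-_P1, humanlincRNA1151+_P1 and humanlincRNA0111+_P1 kept theirs, at 3.43, 1.93 and 1.97.

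Among the probes lower in fetal liver, humanlincRNA0323+_P1 had log2 levels of -3.69, -2.61 and -2.92 in the fetus, 1.29, 0.96 and 0.69 in the adult, and -1.31, -0.95 and -0.51 in liver cancer. The groups did not overlap, with liver cancer between the others. It fell by 4.06 on the log2 scale ± 0.33 (limma adjusted p = 8.97e-06), and was detected on 1 of 3 fetal arrays. humanlincRNA0324-_P1 was among the few bright ones, at 5.38, 4.81 and 5.53 in fetal liver, 8.38, 8.39 and 8.10 in adult liver, and 8.94, 7.11 and 7.45 in liver cancer. Fetal samples lay below the other 6, and adult and cancer samples overlapped. It fell by 3.05 ± 0.44 (limma adjusted p = 0.000353), or 8.29-fold, and its signal was well above background on all 9 arrays.

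humanlincRNA0691+_P1 had log2 levels of -2.14, -1.56 and -1.73 in fetal liver, 0.76, 1.46 and 1.21 in adult liver, and 2.67, 3.14 and 3.24 in liver cancer. It ran in the order fetal, adult, cancer without overlap. The fetal level was lower than the adult by 2.95 ± 0.27 (limma adjusted p = 1.83e-05). humanlincRNA1172+_P1 stood at -0.28, 0.58 and 0.84 in fetal, 2.88, 3.00 and 2.72 in adult liver, and 3.07, 3.99 and 4.30 in liver cancer. It fell by 2.49 ± 0.37 in fetal against adult liver (limma adjusted p = 0.00048). Both were detected on all 9 arrays.

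The remaining leading falls were humanlincRNA1249-_P1, humanlincRNA1627+_P1, humanlincRNA1596+_P1 and humanlincRNA1364+_P1. humanlincRNA1249-_P1 was detected on 0 of 3 fetal arrays and had adult log2 levels of 0.39, -1.88 and 0.48, of which replicate 2 was the low one. It was at least 5.67-fold lower in fetal liver (limma adjusted p = 0.000843). humanlincRNA1627+_P1, also detected on 0 of 3 fetal arrays, was at least 10.2-fold lower (limma adjusted p = 0.0106). humanlincRNA1596+_P1 fell by 3.24 ± 0.52 (limma adjusted p = 0.000679) and humanlincRNA1364+_P1 by 3.13 ± 0.48 (limma adjusted p = 0.000559). With normexp, humanlincRNA1249-_P1, humanlincRNA1627+_P1 and humanlincRNA1364+_P1 were no longer called, at -0.91, -1.19 and -0.94 on the log2 scale.

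The count of humanlincRNA probes called between fetal and adult liver went from 69 to 15 with normexp (4 higher and 11 lower, beside 8.5% and 8.94% of all tested probes). It was 30 of 133 when only probes detected on all 9 arrays were tested (22.6%, against 36.0% of all such probes).

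Between liver cancer and adult liver, 54 humanlincRNA probes were called. That is fewer than the 69 between fetal and adult liver. With normexp the order was the other way (42 against 15), as it was with array weights (100 against 76) and without liver cancer replicate 1 (93 against 74). Over all tested probes the called shares in these settings were 17.6% against 17.4%, 35.9% against 41.7% and 35.4% against 41.0%. The whole array thus kept its order in the last 2 settings and was about equal with normexp. Of the 314, 31 (9.87%) were called higher and 23 (7.32%) lower, where over all tested probes 11.6% were higher and 12.5% lower (24.1% in either direction). Both shares lay below those of the array over all 9 arrays, and no test of that difference was run. In 15 of the 31 higher calls no adult array detected the probe, and in 1 of the 23 lower calls no liver cancer array did. With the dim group set no lower than each array's lowest detected signal, 3 of the 15 and that 1 differed by more than 2-fold. For the others a 2-fold difference above background was not shown. The share over all tested probes is not given. The mouselincRNA probes had 15 higher and 8 lower of 175. The median log2 difference was 0.17 for the 314 and 0.01 over all tested probes, and the liver cancer and adult levels did not overlap in 97 (30.9%, against 42.6%). Among the 133 detected on all 9 arrays, 9 were called higher and 9 lower, where 8.17% and 13.7% of all such probes were. The 95% interval lay within 2-fold for 83 of the 314 (26.4%, against 27.5% over all tested probes).

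The calls changed with the arrays included. On the 7 first-scan arrays, with liver cancer replicate 1 alone and its spread taken from the other groups, 11 were called higher and 24 lower, where 8.93% and 9.31% of all tested probes were. Of the 31 higher calls 8 were also called there, and of the 23 lower calls 15 were. Leaving out liver cancer replicate 1 gave 93 calls, 63 of them higher. The higher share was then 20.1% against 17.0% over all tested probes, and with array weights 21.0% against 17.6%, above that of the array in both settings. Without liver cancer replicate 2 there were 34, 16 of them higher (5.14%, against 9.02% of all tested probes). Higher calls numbered 18 without liver cancer replicate 3 (5.77% against 8.73%) and 19 without adult liver replicate 3 (6.07% against 9.70%). Lower calls numbered 15 without adult liver replicate 1 (4.78% against 10.4%). The lower share of the calls also moved with the scaling, from 42.6% to 63.0% (17 higher, 29 lower) when arrays were scaled by their median, while over all tested probes it moved from 51.8% to 66.9%. Under that scaling the median log2 difference was -0.27 over all tested probes and -0.11 for the 314, and with normexp it was -0.34 for the 314. With normexp (16 higher and 26 lower, where 7.79% and 9.79% of all tested probes were) the lower share was 61.9%, against 55.7% over all tested probes. It was 63.5% against 64.9% with dim signals raised to background, 56.3% against 49.6% with scan as a block, and 68.6% against 51.1% on first-scan arrays alone.

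humanlincRNA0111+_P1, given above, had the largest rise, and it was as large within the first scan (4.84, limma adjusted p = 0.00013). humanlincRNA0691+_P1, also given above, was higher in liver cancer than in adult liver by 1.87 ± 0.27 (limma adjusted p = 0.000917), and by 1.52 within the first scan. humanlincRNA1590+_P1 had log2 levels of -0.27, 1.21 and 1.11 in liver cancer and was not well above background on the fetal or adult arrays. The 3 cancer samples were the only ones in which it was detected. It was at least 7.44-fold higher than in adult liver (limma adjusted p = 0.00173), but the difference was 2.82 on the log2 scale within the first scan (limma adjusted p = 0.059) and 1.48 with normexp (limma adjusted p = 0.012), less than that bound.

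humanlincRNA1364+_P1 had log2 levels of 1.50, 2.94 and 3.11 in liver cancer, 0.97, 0.22 and -0.57 in adult liver, and -3.01, -3.06 and -2.72 in fetal liver. The groups did not overlap, and liver cancer replicate 1, of the first scan, was the cancer sample nearest to the adult ones. It rose by 2.31 ± 0.48 over adult liver (limma adjusted p = 0.00672), and by 1.30 within the first scan, where it was not called (limma adjusted p = 0.14). humanlincRNA2208+_P1 rose by 2.04 ± 0.53 (limma adjusted p = 0.0184), with 1.60 in the first scan (limma adjusted p = 0.23) and 0.68 with normexp (limma adjusted p = 0.058). It also lost its call without adult liver replicate 1 or 2 or liver cancer replicate 2 or 3, at 2.01, 2.02, 1.99 and 1.88.

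The other leading rises, humanlincRNA2282-_P1 and humanlincRNA0373+_P1, were below background on all adult arrays. humanlincRNA2282-_P1 was higher by at least 1.78-fold (limma adjusted p = 0.000292) and humanlincRNA0373+_P1 at least 1.29-fold (limma adjusted p = 0.0307). humanlincRNA0373+_P1 stood at -0.35 on liver cancer replicate 1, and at -2.82 and -2.36 on replicates 2 and 3. Neither was called with normexp, at 0.02 and -0.29 on the log2 scale, nor was humanlincRNA0373+_P1 without adult liver replicate 1 or 3, at 1.97 and 1.87.

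Among the falls, humanlincRNA0289+_P1 had log2 levels of -0.12, -0.60 and -1.99 in liver cancer, 1.94, 1.62 and 1.48 in adult liver, and -0.60, -0.72 and -0.43 in fetal liver. Adult samples stood above the other 6, which overlapped. It fell by 2.58 ± 0.42 in liver cancer (limma adjusted p = 0.00188), and it was called in every alternative setting tried. humanlincRNA0219+_P1 had -0.53, -3.57 and -1.48 in liver cancer against 1.40, 1.99 and 0.95 in adult liver. The cancer samples were all below the adult ones but far apart among themselves. It fell by 3.31 ± 0.66 (limma adjusted p = 0.00554), and by 1.98 with scan as a block, where it was not called.

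humanlincRNA1596+_P1 fell in liver cancer by 2.61 ± 0.52 (limma adjusted p = 0.00506), from 0.99, 0.98 and 0.50 in adult liver to -3.13, -1.18 and -1.05. The lowest of these was the first-scan array. humanlincRNA1627+_P1 fell by 3.53 ± 0.91 (limma adjusted p = 0.0177), humanlincRNA1249-_P1 by 2.89 ± 0.67 (limma adjusted p = 0.0109) and humanlincRNA1297+_P1 by 2.75 ± 0.58 (limma adjusted p = 0.00738). Each of these was detected on all 3 adult arrays and on 1 or 2 liver cancer arrays. The first 2 were not called on first-scan arrays alone, at -1.96 and -3.27, and humanlincRNA1627+_P1 was not called without adult liver replicate 1, at -3.12.

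Between liver cancer and fetal liver, most called humanlincRNA probes were higher in liver cancer. Of the 314, 67 (21.3%) were called higher and 11 (3.50%) lower, where over all tested probes 20.4% were higher and 22% lower (42.4% in either direction). The higher share was near that of the array and the lower share below it. In 13 of the 67 higher calls no fetal array detected the probe, and in 3 of the 11 lower calls no liver cancer array did. With the dim group set no lower than each array's lowest detected signal, 1 of the 13 and all 3 of the lower ones differed by more than 2-fold. The share over all tested probes is not given. The mouselincRNA probes had 39 higher and 7 lower of 175. The median log2 difference was 0.43 for the 314 and 0.05 over all tested probes, and the groups did not overlap in 121 (38.5%, against 58.3%). Among the 133 detected on all 9 arrays, 30 were called higher and 5 lower, where 18.7% and 20.1% of all such probes were. For 65 of the 314 (20.7%, against 18.7% over all tested probes) the 95% interval lay within 2-fold.

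On first-scan arrays alone, 44 were called higher and 11 lower, where 18.5% and 20.1% of all tested probes were, and 36 of the 67 higher calls and 6 of the 11 lower calls were made there as well. With normexp there were 24 higher and 12 lower, where 13.3% and 16.8% of all tested probes were, so that lower calls, almost the same in number, made up 33.3% of the calls in place of 14.1%. The median log2 difference then was -0.28 for the 314 and -0.26 over all tested probes, and with arrays scaled by their median it was 0.20 and -0.18. Lower calls numbered 7 without fetal liver replicate 2 (2.24%, against 21.3% of all tested probes) and 6 without fetal liver replicate 3 (1.92% against 20.3%).

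The leading rises over fetal liver were humanlincRNA1590+_P1, at least 11.5-fold (limma adjusted p = 6.19e-05), and humanlincRNA1364+_P1, by 5.45 ± 0.48 (limma adjusted p = 1.57e-05). With normexp these differences were smaller, at 1.70 and 3.11 on the log2 scale, and humanlincRNA1364+_P1 was detected on 1 of 3 fetal arrays. humanlincRNA0691+_P1 followed, by 4.83 ± 0.27 or 28.4-fold (limma adjusted p = 9.49e-07). Levels of all 3 are given above, and each stood higher in every liver cancer sample than in any fetal one. humanlincRNA2257-_P1 had log2 levels of 0.18, 2.30 and 2.79 in liver cancer, -2.23, -2.09 and -2.91 in fetal liver, and 0.93, 0.64 and 0.12 in adult liver. Cancer and adult samples overlapped, and both stood above the fetal ones. It rose by 4.17 ± 0.60 over fetal liver (limma adjusted p = 0.000361), by 2.59 within the first scan (limma adjusted p = 0.003) and by 2.38 with normexp.

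humanlincRNA1172+_P1 was higher in liver cancer than in fetal liver by 3.41 ± 0.37 (limma adjusted p = 6.05e-05), and humanlincRNA0324-_P1 by 2.60 ± 0.44 (limma adjusted p = 0.000907). humanlincRNA0373+_P1 was at least 2-fold higher (limma adjusted p = 0.00195), with no call under normexp, at -0.17.

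The falls from fetal liver to liver cancer were led by those that were bright in the fetus. humanlincRNA0970-_P1 fell by 4.55 ± 0.49 (limma adjusted p = 5.64e-05) and humanlincRNA1151+_P1 by 3.45 ± 0.18 (limma adjusted p = 6.34e-07). humanlincRNA1963-_P1 was at least 6.49-fold lower (limma adjusted p = 1.15e-05). humanlincRNA0381+_P1, detected on 1 of 3 liver cancer arrays, fell by 3.32 ± 0.26 (limma adjusted p = 7.91e-06). These 4 were called within the first scan and with normexp too, where humanlincRNA1963-_P1 was at -1.68 on the log2 scale.

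humanlincRNA1431-_P1 was at least 3.23-fold lower (limma adjusted p = 0.0423) and humanlincRNA0052-_P1 at least 2.33-fold (limma adjusted p = 0.0191), both below background on all liver cancer arrays. They were not called on first-scan arrays alone, at -0.84 and -0.62 on the log2 scale. humanlincRNA1431-_P1 was not called without any 1 of fetal liver replicates 1, 2 and 3 or liver cancer replicates 2 and 3, at -2.83, -2.87, -3.07, -2.63 and -2.18. humanlincRNA0052-_P1 was not called without fetal liver replicate 3 or liver cancer replicate 2 or 3, at -1.82, -1.47 and -1.64.

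Some probes differed from adult liver in the same direction in fetal liver and in liver cancer. The 2 comparisons use the same adult arrays, so an unusual adult level moves both, and the values are given side by side only. For humanlincRNA0289+_P1 the log2 differences were -2.26 in fetal liver and -2.58 in liver cancer. For humanlincRNA0549-_P1 they were -1.71 ± 0.30 and -1.90 ± 0.30, with adult log2 levels of 0.65, 0.59 and 0.71 and the highest of the other 6 at -0.60. humanlincRNA1714-_P1, at 0.49, 0.38 and 0.00 in adult liver, had -1.35 ± 0.22 and -1.41 ± 0.22, with the other 6 samples between -1.34 and -0.82. In these 3 the adult samples stood alone at the top, and fetal and cancer samples overlapped. With normexp, humanlincRNA0549-_P1 and humanlincRNA1714-_P1 lost the fetal call, at -0.93 and -0.69.

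humanlincRNA1037+_P1 had log2 differences from adult liver of -1.91 ± 0.42 in fetal liver and -1.90 ± 0.42 in liver cancer. humanlincRNA2077-_P1 had -2.21 ± 0.47 and -2.04 ± 0.47, and liver cancer replicate 3 was its lowest sample, at -3.37 against -1.35 and -1.41. Those 2 probes were not called in liver cancer with scan as a block, at -1.30 and -1.34. humanlincRNA1050-_P1 had -2.30 ± 0.30 and -1.69 ± 0.30, humanlincRNA0490+_P1 -1.88 ± 0.21 and -1.33 ± 0.21, and humanlincRNA0255-_P1 -3.00 ± 0.37 and -2.51 ± 0.37. All 5 were called in both comparisons. With normexp, humanlincRNA1050-_P1 and humanlincRNA0490+_P1 were called in neither, at -0.55 and -0.96 and at -0.42 and -0.98, and humanlincRNA0255-_P1 and humanlincRNA2077-_P1 lost the fetal call, at -0.49 and -0.68.

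humanlincRNA0034-_P1, humanlincRNA1148+_P1, humanlincRNA1283+_P1 and humanlincRNA1297+_P1 were below background on all fetal arrays. In adult liver they were detected on 1, 3, 2 and 3 arrays. humanlincRNA1148+_P1 and humanlincRNA1297+_P1 were at least 2.43-fold and 3.48-fold lower in fetal than in adult liver. The same measure gave 1.43-fold for humanlincRNA0034-_P1 and 2.18-fold for humanlincRNA1283+_P1. These 2 folds are no bounds, because not all adult arrays detected the probes. In liver cancer all of these probes, in the order first named, fell by 1.21, 1.68, 2.17 and 2.75 on the log2 scale. The fetal call of each was lost with normexp, at -0.19, -0.29, -0.31 and -0.44. The liver cancer call of humanlincRNA0034-_P1 was lost without fetal liver replicate 2, any 1 adult liver replicate, or liver cancer replicate 2 or 3, at values from -1.39 to -0.94. That of humanlincRNA1283+_P1 was lost without adult liver replicate 1 or 3 or liver cancer replicate 1 or 3, at -1.90, -1.84, -1.88 and -1.95.

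On the higher side, humanlincRNA2282-_P1 and humanlincRNA1643+_P1 were below background on all adult arrays. humanlincRNA2282-_P1 was at least 1.37-fold higher in fetal liver and at least 1.78-fold in liver cancer. humanlincRNA1643+_P1, detected on 3 fetal and 2 liver cancer arrays, was at least 1.43-fold higher in fetal liver. Its fold of 1.23 in liver cancer is no bound, because not all liver cancer arrays detected it. humanlincRNA1385-_P1 was called in both comparisons too, but it was detected on 1 fetal, 0 adult and 2 liver cancer arrays, and its sign turned to -0.61 and -0.37 when dim signals were raised to background. With normexp no difference of these 3 was called, and humanlincRNA1643+_P1 and humanlincRNA1385-_P1 turned to -0.28 and -0.42 in liver cancer. Without adult liver replicate 1 or liver cancer replicate 2 or 3, humanlincRNA1643+_P1 was not called in liver cancer, at 0.98, 1.14 and 1.18.

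Few humanlincRNA probes were detected in all 3 samples of 1 group and in none of another. Fetal liver against adult liver had 8 such probes, beside 5.1% of all probes of the array, and fetal liver against liver cancer 3 (0.903% of all). Adult liver had 4 against fetal liver (1.09% of all) and 0 against liver cancer (0.0854% of all). Liver cancer had 11 against fetal liver (1.9% of all) and 20 against adult liver (2.76% of all). As shares of all humanlincRNA probes, these counts were 0.725%, 0.272%, 0.362%, 0, 0.996% and 1.81%.

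Single arrays set several of these counts, given here with the share of all humanlincRNA probes against that of all probes. Without liver cancer replicate 1, the only one of its group in the first scan, liver cancer had 140 probes against fetal liver (12.7% against 12.7%) and 192 against adult liver (17.4% against 19.5%). Without fetal liver replicate 2, 22 were detected in liver cancer and not in fetal liver (1.99% against 3.27%), and 12 in adult and not in fetal liver (1.09% against 1.91%). Without fetal liver replicate 1 or 3, 16 or 14 were detected in fetal and not in adult liver (1.45% against 6.43%, and 1.27% against 5.70%), as were 12 without adult liver replicate 2 (1.09% against 5.91%). Leaving out that adult array also gave 7 in adult and not in fetal liver (0.634% against 1.17%). Without liver cancer replicate 2, fetal liver had 5 and adult liver 2 against liver cancer (0.453% against 1.34%, and 0.181% against 0.164%), and without adult liver replicate 3 adult liver had 1 (0.0906% against 0.112%). Within the first scan, where 1 liver cancer array decides, fetal liver had 21 (1.90% against 6.71%) and adult liver 14 (1.27% against 1.86%) against liver cancer.

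Most probes of this kind were dim where they were detected. humanlincRNA1016-_P1, at -1.76, -1.71 and -1.74 in fetal liver, was at least 1.39-fold higher than in adult liver (limma adjusted p = 0.029). That call was lost without any 1 fetal liver replicate or adult liver replicate 1 or 2, at values from 1.50 to 1.92 on the log2 scale. humanlincRNA1518-_P1, at -1.82, -1.80 and -2.18, was at least 1.22-fold higher and was not called (limma adjusted p = 0.303). In liver cancer, humanlincRNA0341+_P1 stood at -1.99, -1.96 and -1.75 and was at least 1.92-fold higher than in fetal liver (limma adjusted p = 1.94e-05). Bounds against fetal liver for humanlincRNA2366-_P1, humanlincRNA2281-_P1 and humanlincRNA0083-_P1 were 1.97-fold, 1.96-fold and 1.75-fold.

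humanlincRNA2281-_P1 was not called without fetal liver replicate 2 or liver cancer replicate 3, at 0.97 in each case. All 4 liver cancer differences from fetal liver turned negative with normexp, at -0.13 for humanlincRNA0341+_P1, -0.29 for humanlincRNA2366-_P1, -0.35 for humanlincRNA2281-_P1 and -0.32 for humanlincRNA0083-_P1. Against adult liver, the bounds were 1.86-fold for humanlincRNA1751+_P1, 1.74-fold for humanlincRNA1256+_P1, 2.03-fold for humanlincRNA2129-_P1 and 2.12-fold for humanlincRNA1543-_P1. The first 3 were called over all arrays and the last was not (limma adjusted p = 0.143). None of these 4 was called against adult liver with normexp, at 0.03, 0.05, 0.07 and -0.34. Leaving out adult liver replicate 1 or 2 or liver cancer replicate 2 ended the call of humanlincRNA1256+_P1, at 1.47, 1.47 and 1.27. humanlincRNA2129-_P1 lost its call without fetal liver replicate 1 or 3, any 1 adult liver replicate, or liver cancer replicate 2 or 3, at values from 0.88 to 1.26.

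At the steady end, 6 probes detected on all 9 arrays were picked because their levels ranged least, so their values are a description only. humanlincRNA1136+_P1 ran from 1.80 to 2.26 on the log2 scale over the 9 arrays, humanlincRNA1739+_P1 from 3.38 to 3.88, and humanlincRNA2161-_P1 from 1.69 to 2.21. humanlincRNA2345-_P1 ran from 3.74 to 4.27, humanlincRNA2183+_P1 from 0.34 to 0.97 and humanlincRNA1883+_P1 from 1.08 to 1.73. Their levels on the second-scan arrays lay among those of the first scan in some and at the top or bottom in others: liver cancer replicate 3 was the highest for humanlincRNA2183+_P1 and the lowest for humanlincRNA2345-_P1.

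In 49 of the 547 pairs both probes were tested, in 214 only 1 was, and in 284 neither was. In fetal against adult liver the 2 probes of a pair had the same sign of difference in 28 of 49 pairs, both were called in the same direction in 2 and in opposite directions in 0, and 1 of them was called in 12. In liver cancer against adult liver these counts were 25, 1, 1 and 15, and in liver cancer against fetal liver 28, 2, 0 and 15. Across the 49 pairs, which share arrays and scaling, the differences of plus and minus probes had Pearson correlations of 0.15, 0.25 and 0.16.

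Both probes of number 1627 were called lower in fetal liver and in liver cancer, each against the same adult arrays. humanlincRNA1627-_P1 had log2 levels of -1.82, -2.17 and -1.75 in fetal liver, 0.14, 0.37 and 0.54 in adult liver, and -1.25, -1.79 and -1.31 in liver cancer. humanlincRNA1627+_P1 had -2.42, -3.61 and -2.83 in fetal liver, 1.39, 0.53 and -0.25 in adult liver, and -1.41, -5.35 and -2.17 in liver cancer. For each probe the adult samples stood above the other 6, with a wider spread for the plus probe. The minus probe differed from adult liver by -2.26 ± 0.23 in fetal liver (limma adjusted p = 3.6e-05) and by -1.80 ± 0.23 in liver cancer (limma adjusted p = 0.000465), and the plus probe by at least 10.2-fold and by -3.53 ± 0.91. With normexp the minus probe lost its fetal call, at -0.94.

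The probes of number 1364 were both called lower in fetal liver, humanlincRNA1364+_P1 by 3.13 and humanlincRNA1364-_P1 by 1.54 ± 0.38 (limma adjusted p = 0.00815). In liver cancer their differences from adult liver had opposite signs, 2.31 for the plus probe and -1.03 ± 0.38 for the minus probe, which was not called (limma adjusted p = 0.0663). For number 0323 the plus probe fell in liver cancer by 1.90 ± 0.33 (limma adjusted p = 0.00252). The minus probe humanlincRNA0323-_P1 was below background on all adult arrays and detected on 2 of 3 liver cancer arrays. It was called higher in liver cancer (limma adjusted p = 0.0285). Its fold of 1.16 is no bound, because not all liver cancer arrays detected it. That rise was not called within the first scan (0.95), without adult liver replicate 2 or 3 (1.50 and 0.98) or without liver cancer replicate 2 or 3 (1.33 and 1.30), and it turned to -0.28 with normexp.

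In the other pairs named by the rule, at most 1 probe was called in a comparison. humanlincRNA0219+_P1 fell in both comparisons with adult liver, by 2.83 in fetal liver and 3.31 in liver cancer, while humanlincRNA0219-_P1, detected on 1 fetal, 0 adult and 2 liver cancer arrays, was called in neither. humanlincRNA0341-_P1, detected on all 9 arrays, was not called in any of the 3 comparisons, its largest difference being -0.89 ± 0.38 in fetal against adult liver (limma adjusted p = 0.0847). humanlincRNA1431+_P1 differed between liver cancer and fetal liver by -0.27 ± 0.40, with a 95% interval from -1.17 to 0.64. Whether the probes of a pair differed from each other was not tested.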

How the data were processed

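The set holds 1104 probes named humanlincRNA. The deposited files hold, per the file headers, 1-colour Agilent scanner output from Feature Extraction 11.0.1.1. From them came the deposited intensity columns: the processed signal, background-subtracted by that software, and the median spot and background signals. The deposited marks for well above background and outliers are 0 or 1.

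Processed signals were taken to log2, unmarked spots averaged per probe, and each array's 75th percentile subtracted. Control spots were left out. Probes detected on at least 3 of 9 arrays, with at least 2 usable arrays per group, were fitted over all 9 arrays (R 4.3.3, limma 3.58.1, data.table version 1.17.8) with Benjamini-Hochberg adjustment. Calls needed an adjusted p below 0.05 and a 2-fold difference. The number of arrays limits precision. The procedure was also tested on simulated data.

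The alternatives tried were quantile, median and detected-probe scaling, normexp background correction (offset 50, on the median signals), other detection filters, dim signals raised to background, outlier spots kept, scan as a block or the first scan alone, the replicate number as a block, other variance models and thresholds, and each array left out.

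Probes were named by rule: in each comparison the 6 largest rises and falls among called probes whose groups did not overlap and that were detected on all arrays of the higher group, those called in the same direction in fetal liver and liver cancer against adult liver, up to 6 per contrast detected in all samples of 1 group and none of another, 6 pairs, 6 steady probes, and probes called in liver cancer against adult liver with the opposite sign in the first scan, of which there were 0. The probe set, lists and tests were chosen with earlier results of these data known.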

Additional observations from a re-analysis of the deposited data

How the results depend on the processing

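The counts of called humanlincRNA probes were 69 (fetal against adult liver), 54 (liver cancer against adult liver) and 78 (liver cancer against fetal liver). With normexp they became 15, 42 and 36, or 4.78%, 13.4% and 11.5%, against 17.4%, 17.6% and 30.1% of all tested probes. With only probes detected on all 9 arrays they were 30, 21 and 36 of 133, or 22.6%, 15.8% and 27.1%. Among the 314 the called shares were 22.0%, 17.2% and 24.8%. Over all probes the shares were 36.0%, 22.9% and 39.3% with that filter, and 39.6%, 24.1% and 42.4% as reported. With no filter liver cancer against fetal liver had 124 of 1101 (11.3%, against 29.1% of all probes). For liver cancer against adult liver it became 32 with scan as a block, 35 within the first scan, 100 with array weights and 27 at an adjusted p below 0.01. Leaving out each array in turn gave 56 to 74, 34 to 93 and 65 to 101. Over all tested probes the called shares then ran from 37.0% to 41.0%, 19.1% to 35.4% and 38.9% to 48.1%. With the replicate number as a block the counts were 69, 57 and 82, where 39.8%, 24.7% and 43.0% of all tested probes were called. The labels name no shared animal or day. The correlation of same-numbered deviations ran from -0.16 to 0.31, and 7 of 18 matches were best with their own number. With 3 samples a group this check cannot tell whether the numbers pair the samples. With the mark for a positive and significant signal, the mean detected shares were 45.7% for fetal liver, 42.5% for adult liver and 58.1% for liver cancer. That mark is looser: 15 to 35 of 300 negative-control spots carried it on first-scan arrays, against 79 and 93 on liver cancer replicates 2 and 3. With the mark for well above background, liver cancer had 17.9% within the first scan against 34.8% over its 3 arrays. Counts when detection in at least 2 of 3 arrays was enough follow, with the share of humanlincRNA probes against that of all probes. Fetal and not adult liver had 22 (1.99% against 7.07%), and adult and not fetal liver 9 (0.815% against 1.48%). Adult liver and not liver cancer had 1 (0.0906% against 0.143%). Liver cancer and not fetal liver had 141 (12.8% against 12.8%), and liver cancer and not adult liver 192 (17.4% against 19.6%). Within the first scan, fetal liver and not liver cancer had 21 and adult liver and not liver cancer 14. Leaving out each array gave 8 to 16 (fetal, not adult), 3 to 5 (fetal, not cancer), 4 to 12 (adult, not fetal), 0 to 2 (adult, not cancer), 11 to 140 (cancer, not fetal) and 20 to 192 (cancer, not adult). The shares of all probes beside the highest of each range, and beside the first-scan counts, are given above.

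Of 94 called differences of the named probes, 33 kept their direction and call in every setting. Normexp ended the call of 49, the first scan alone of 18, raising dim signals to background of 22, and leaving out some 1 array of 17. Signs turned with normexp in liver cancer against adult liver for humanlincRNA0373+_P1 (-0.29), humanlincRNA1385-_P1 (-0.42), humanlincRNA1643+_P1 (-0.28), humanlincRNA2366-_P1 (-0.35) and humanlincRNA0323-_P1 (-0.28). In liver cancer against fetal liver they turned for humanlincRNA0373+_P1 (-0.17), humanlincRNA2366-_P1 (-0.29), humanlincRNA2281-_P1 (-0.35), humanlincRNA0341+_P1 (-0.13), humanlincRNA0083-_P1 (-0.32), humanlincRNA1751+_P1 (-0.0078) and humanlincRNA1256+_P1 (-0.0034). Raising dim signals to background turned humanlincRNA1385-_P1 to -0.61 in fetal liver and -0.37 in liver cancer, each against adult liver. The cause was not tested. Signal over background limits dim probes. Their folds are bounds for the processed signals only, and only where the bright group was detected on all its arrays. Differences with normexp could be smaller than these bounds.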

Other observations

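Detected shares of plus and minus probes are given here as values, with no test of their difference. Over the 547 pairs, the share of plus probes detected was 21.0%, 27.8% and 19.2% in fetal liver, 20.1%, 20.8% and 20.8% in adult liver, and 19.2% on liver cancer replicate 1. The minus probes gave 15.5%, 25.8% and 17.9% in fetal liver, 15.7%, 16.1% and 16.5% in adult liver, and 16.6% on liver cancer replicate 1. The plus share was the higher on each of the 7 first-scan arrays. On liver cancer replicates 2 and 3, the only arrays of the second scan, the minus share was 45.5% and 43.3% and the plus share 44.4% and 39.7%. On replicate 2 that is 135 pairs with only the minus probe detected against 129 with only the plus probe.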
